A study of Mus musculus with 2 samples.

Results

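Entries of the mouse microRNA catalogue whose status as products of Dicer is widely questioned were picked by name, namely mmu-miR-709, mmu-miR-690, mmu-miR-2137, mmu-miR-2861, mmu-miR-3963, mmu-miR-5100, mmu-miR-5105, mmu-miR-5126 and mmu-miR-6240 (hereafter without the species prefix). Of these 9, 8 had a probe among the 1892 microRNA probes of the arrays, and miR-5105 had none. The arrays held RNA of unwounded skin and unwounded oral mucosa of female Balb/c mice aged 8 to 10 weeks, and a single array was run per tissue. The RNA on an array, 2 µg in total, was a pool of 3 mice, which were not genetically modified as far as the methods state, and no agent had been given to either tissue. With 1 pool on 1 array per tissue the design allows no test, and each difference is one between a pair of arrays. In RNA of whole tissue, a change in the share of a cell type and a change of RNA per cell cannot be told apart.

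A microRNA is a short guide RNA. Its precursor folds back into a hairpin, the enzyme Dicer cuts out a duplex of the hairpin's 5p and 3p arms, and 1 arm is loaded into an Argonaute protein, where bases 2 to 8, the seed, pair with target messengers. Catalogues also hold entries for which this path is doubted, often because their letters resemble pieces of ribosomal RNA, transfer RNA or genomic repeats, all of which are far more abundant than most microRNAs. The array chemistry added a poly(A) tail and a tag to the 3' ends of total RNA, so RNA other than microRNA could also be labelled, and each array carried probes for 5S ribosomal RNA beside the microRNA probes.

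The target sequences of the 8 probes are shown because the comparisons on base composition, repeats and ribosomal RNA turn on their letters, with the seed in capitals and the established let-7a-5p, miR-21a-5p and miR-205-5p for comparison.
miR-709: gGAGGCAGaggcaggagga
miR-690: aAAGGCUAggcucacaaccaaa
miR-2137: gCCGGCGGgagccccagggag
miR-2861: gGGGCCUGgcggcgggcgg
miR-3963: uGUAUCCCacuucugacac
miR-5100: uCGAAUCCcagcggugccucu
miR-5126: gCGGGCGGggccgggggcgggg
miR-6240: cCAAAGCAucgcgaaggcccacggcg
let-7a-5p: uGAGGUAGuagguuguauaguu
miR-21a-5p: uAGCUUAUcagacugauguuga
miR-205-5p: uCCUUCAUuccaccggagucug
No pair of the 8 shared a seed. On the whole array 1 other probe had the seed of miR-2861, that of miR-3091-3p, and 1 had the seed of miR-6240, that of miR-330-3p. Neither of these was detected on either array, at 38.4 and 45.7 in skin and 47.0 and 58.4 in oral mucosa (mean signal of the repeat spots, in scanner units). None of the 8 names carries a 5p or 3p suffix, against 322 of all 1892 probes (17.0%) without one. In the list of 82 established microRNAs on the array only miR-451a, which is cut by Argonaute 2 and not by Dicer, lacked a suffix.

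A RefSeq entry (mouse build GRCm38.p6) with the sequence of the array's probe was found for 7 of the 8. The mature miR-690 lies at chr16:28599940-28599961 on the minus strand, within the span of the gene Fgf12. The span of Zfp185 holds miR-2137, at chrX:72992113-72992133 on the plus strand. For miR-5100 the position is chr11:60728698-60728718 on the plus strand, within the span of Mief2, and for miR-5126 it is chr1:84695890-84695911 on the plus strand, within the span of Dner. Whether these places are exons, introns or UTRs was not determined here. The other 3 lie in the span of no other gene. For miR-2861 the place is chr2:32712819-32712837 on the minus strand, and its hairpin lies 12 bases from that of miR-3960. For miR-6240 it is chr5:114851973-114851998 on the plus strand, with the nearest other gene at 1582 bases. For miR-3963 it is chr3:151023839-151023857 on the minus strand, 270300 bases from the nearest other gene.

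All 8 probes were detected on both arrays. Detection required the mean of the 2 repeat spots to exceed the average of the 16 empty spots by over 3 SD, which set the limit at 59.9 on the skin array and at 71.8 on the other. This was met by 23.6% of all probes in skin and 27% in oral mucosa. The epithelial markers of the tissue label, which are miR-203-3p, miR-205-5p and the miR-200 family, were all detected on both arrays (7 of 7), with a summed signal of 49225 in skin and 48779 in oral mucosa. Markers of each other tissue component read or summed higher in oral mucosa before normalization, to different degrees. The 4 stromal markers summed to 437 in skin and 1711 in oral mucosa (3 and 4 of them detected), the endothelial miR-126a-3p read 43.4 and 155, and the 2 red cell markers on the array summed to 105 and 3106. Of the latter, miR-144-3p was detected on neither array. The 2 immune markers on the array summed to 99.7 and 304, through miR-150-5p, while miR-223-3p was detected on neither array. The 3 skeletal muscle markers summed to 247 and 338, a ratio close to that of the array scales (1.37). Of these, miR-133a-3p, at 48.4 and 96.0 and detected in oral mucosa only, differed by 0.71 (SD 0.29) after normalization. By contrast miR-206-3p differed by -0.19 (SD 0.36), and miR-1a-3p was detected on neither array. The part of these components in the values below was not tested.

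The brightest of all 1892 microRNA probes on both arrays was miR-709. Its spots read 28807 and 26546 in skin (mean 27677 ± 1599, SD of the 2 repeat spots) and 27790 and 26476 in oral mucosa (27133 ± 929). The next brightest probe on both arrays was the established miR-205-5p, which maintains epithelial cells and is abundant in keratinocytes, at 22415 ± 6672 in skin and 21673 ± 5958 in oral mucosa. Its brighter skin spot, 27134, lay between the skin spots of miR-709, so that the order of these probes in skin was within the spread of repeat spots. Signals of different probes are compared here as brightness only, since probes bind with different strength and a brighter probe need not stand for more RNA. Neither value was limited by the scanner, as the brightest spot of any kind read 60167 in skin and 51562 in oral mucosa.

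The other members spread over a wide range of brightness. The spots of miR-690 read 9397 and 8201 in skin and 5794 and 5141 in oral mucosa, ranks 9 and 19 among the 1892 probes. For miR-5126 the spots read 7955 and 6551 in skin and 10888 and 8667 in oral mucosa, ranks 11 and 9. Thus 3 of the 8 members were among the 20 brightest probes on both arrays. The next was miR-2861, for which a role in bone-forming cells has been described, with 1558 and 1314 in skin and 2501 and 2809 in oral mucosa. For miR-3963 the spots read 1365 and 993 in skin and 1335 and 1328 in oral mucosa. Those of miR-2137 read 998 and 914 in skin, above both oral mucosa spots at 565 and 584. The skin spots of miR-5100, at 374 and 600, lay far apart, while those in oral mucosa read 642 and 671. The dimmest member was miR-6240, with 91.2 and 81.2 in skin and 125 and 122 in oral mucosa, which is 1.44 and 1.72 times the detection limit. The median signal of the 8 was 1308 in skin and 1993 in oral mucosa, against 652 and 942 for the 82 established microRNAs and 42.2 and 52.2 for all probes.

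**Figure D1:**
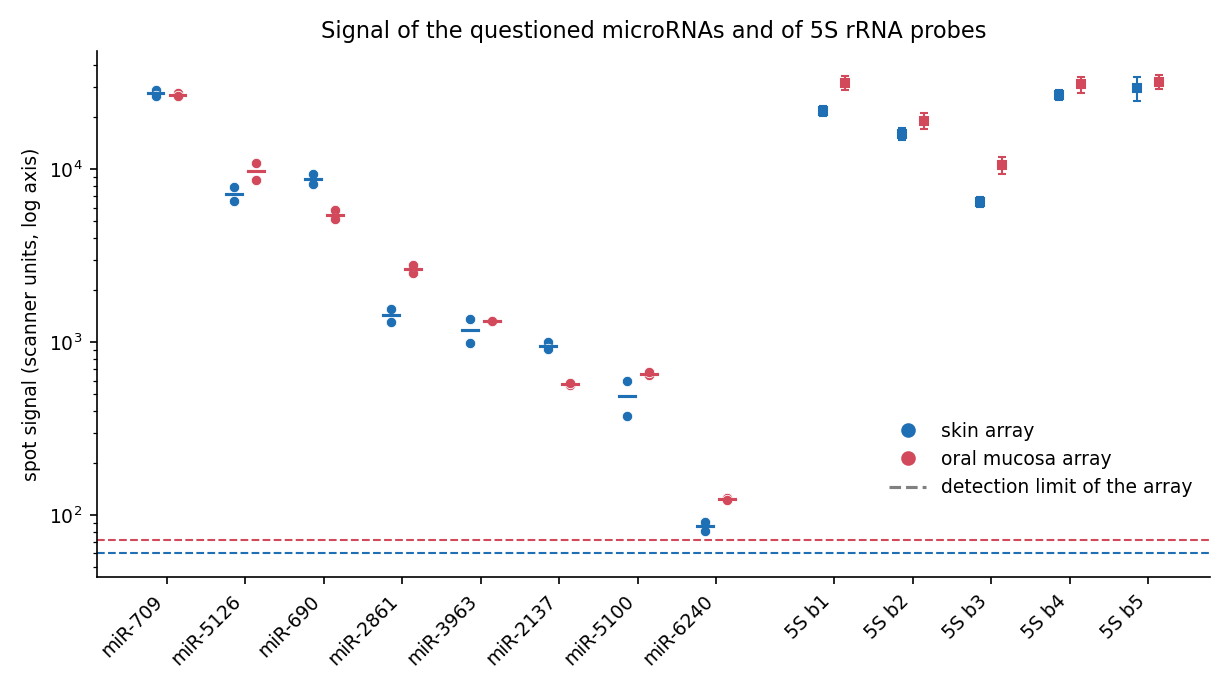
Signal in scanner units (log axis) of the 2 repeat spots of each of the 8 questioned microRNAs (points, with their mean as a bar) and of 5 probes for 5S ribosomal RNA (squares, mean ± SD of 4 spots) on the skin and the oral mucosa array, with the detection limit of each array as a dashed line. MiR-709, at 27677 and 27133, reads in the range of the 5S probes, and miR-6240 lies just above the limits of 59.9 and 71.8.

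The members together held 13.1% of the summed signal above background over all microRNA probes in skin and 11.1% in oral mucosa, of which miR-709 alone held 7.61% and 6.35%. The 82 established probes held 46.7% and 45.1%. Background is here the offset that the normalization fitted for each array, 37.9 for skin and 46.3 for oral mucosa.

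Probes for an RNA that is no microRNA read as high as the brightest members. The 5 probes for 5S ribosomal RNA, a component of the large ribosomal subunit, read between 6507 and 29629 in skin and between 10597 and 32280 in oral mucosa (means of 4 spots each). Their targets are printed because they show what such a fragment looks like beside the members.
5S-b1: cgcgcccgaucucgucugaucu
5S-b2: cucggaagcuaagcagggucgg
5S-b3: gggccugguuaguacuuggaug
5S-b4: ugggagaccgccugggaauacc
5S-b5: gaauaccgggugcuguaggcuu
In skin 0 microRNA probes were brighter than 5S-b5 and 1, miR-709, was brighter than 5S-b4. In oral mucosa 0 were brighter than 5S-b1, 5S-b4 or 5S-b5. No member had the whole sequence of one of these 5S targets. The longest run of bases that a member shared with any of the 5 was 8, between miR-2861 and 5S-b3, and it was 5 or 6 for the other 7. Among the 82 established microRNAs the longest such run was 4 to 7 bases. The run shared by miR-2861 includes its seed. Sequences of 5S ribosomal RNA outside these 5 targets, of the other ribosomal RNAs, of transfer RNAs and of repeat families were not used here.

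The tissue difference is given as oral mucosa minus skin on the log2 scale after Variance Stabilizing Normalization (VSN), in which every array gets its own background offset and scale factor. A microRNA was taken to differ when this value was at least 1 in size, a change of 2-fold. Of the 8 members 2 differed, both with higher signal in skin, and 0 were higher in oral mucosa. Over all 562 probes detected on at least 1 array, 28.5% differed, 14.8% with higher signal in skin and 13.7% with higher signal in oral mucosa. With 25.0% of the members past the rule their share was near this background, and it is no result about the members. Of the established list 25 of the 78 detected differed (32.1%), 15 of them higher in oral mucosa.

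The member with the largest difference was miR-2137, at -1.25 (SD 0.10 from the repeat spots of both arrays), or 2.39-fold higher signal in skin. It was followed by miR-690 at -1.15 (SD 0.19), 2.22-fold higher in skin. For both, every skin spot was brighter than every oral mucosa spot before any normalization. For miR-2137 the median difference of the detected probes within 3 rows and 3 columns was -0.14 around one spot and 0.26 around the other. For miR-690 it was -0.41 and -0.37, so that the neighbourhood of miR-690 was itself shifted toward skin, and its part in the difference was not tested. The rule was kept by miR-2137 under 5 of 6 other normalizations and by miR-690 under 2 of 6. Of these 6, a background correction (normexp) before VSN gave the same values as VSN and is no separate check. Apart from it, miR-690 kept the rule only with scaling to the 75th percentile (-1.14). Without normalization between the arrays the values were -0.73 and -0.69.

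The other 6 members stayed under the rule with VSN and under all 6 other normalizations, of which normexp before VSN repeats the VSN values. The difference of miR-709 was -0.49 (SD 0.10). Its raw signals nearly coincided, and its value was -0.03 without normalization and 0.00 with quantile normalization, which sets the brightest probe of each array equal. For miR-3963 the difference was -0.29 (SD 0.34), and without normalization it was above 0, at 0.18. For miR-5126 it was -0.03 (SD 0.31) and for miR-5100 it was -0.01 (SD 0.53), each smaller than the spread of its own repeat spots. With only the first repeat spot of miR-5100 the value was 0.41 and with only the second -0.35. A difference toward oral mucosa was read for miR-2861, at 0.44 (SD 0.22), and for miR-6240, at 0.22 (SD 0.22), and both values were above 0 under all 6 other normalizations. The normalized repeat spots of the arrays did not overlap for 6 of the 8, all but miR-5100 and miR-5126. The same held for 70.8% of all detected probes.

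**Figure D2:**
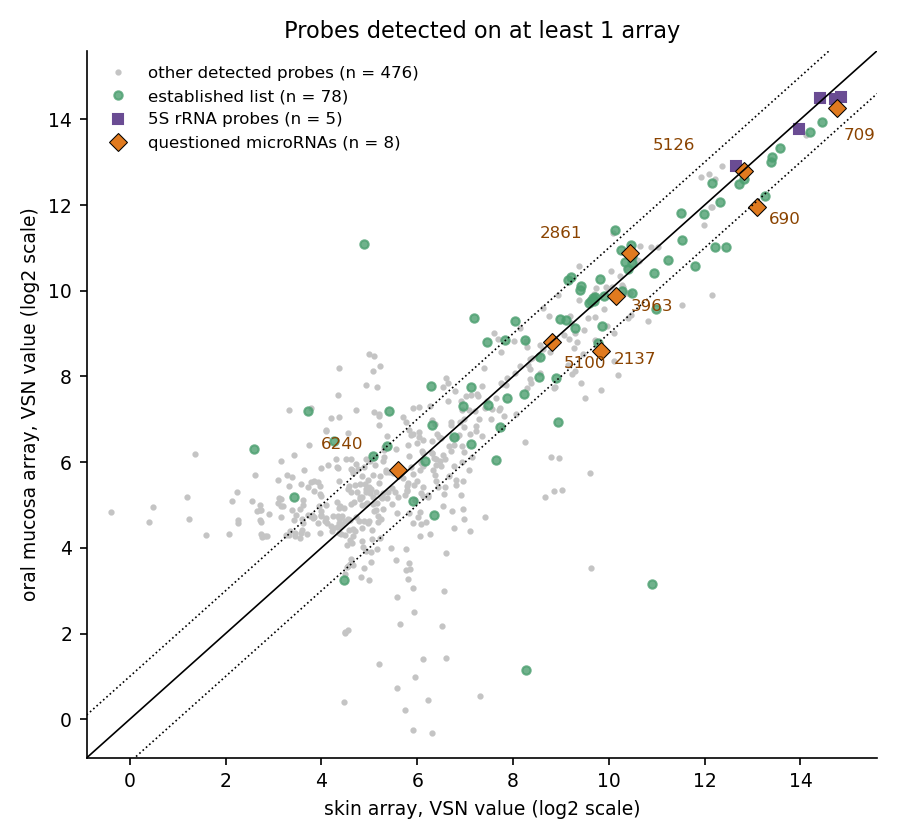
VSN value (log2 scale) on the skin array (horizontal) and the oral mucosa array (vertical) for the 562 probes detected on at least 1 array and for the 5S probes. The solid line marks equal values and the dotted lines the size rule. Of the 8 questioned microRNAs (diamonds), miR-690 and miR-2137 lie past the lower dotted line, and miR-709 lies at the upper right end with miR-205-5p.

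The range of the members' differences, from -1.25 to 0.44, was set beside the established microRNA nearest to each in mean VSN value. These 8 were miR-205-5p for miR-709, let-7b-5p for miR-690, miR-93-5p for miR-2137, miR-92a-3p for miR-2861, miR-22-3p for miR-3963, miR-221-3p for miR-5100, let-7a-5p for miR-5126 and miR-146a-5p for miR-6240. Their differences ran from -1.05 for let-7a-5p (SD 0.11) to 1.26 for miR-221-3p (SD 0.13), a microRNA of endothelial and proliferating cells. The third past the rule was miR-146a-5p, a regulator of innate immune signalling, at 1.05 (SD 0.19). So 3 of these 8 differed, against 2 of the 8 members. Of the established microRNAs that were the brightest after miR-205-5p, miR-203-3p, which promotes keratinocyte differentiation, read 18735 and 18503 (difference -0.48, SD 0.37) and miR-23a-3p read 12253 and 14153 (difference -0.25, SD 0.08). The widely expressed miR-21a-5p read 851 and 1301 (difference 0.17, SD 0.11). On both arrays miR-709, miR-690, miR-5126, miR-2861 and miR-3963 were brighter than it. For miR-3963 in oral mucosa (1331) this was within the spread of repeat spots. The median difference was -0.16 for the members, -0.02 for these 8, -0.05 for the 78 established and 0.00 for all detected probes. The sign of the members' median was not stable, as it was 0.06 with quantile normalization, 0.05 with the 5S median subtracted and 0.30 without normalization. Over all detected probes the median was -0.01, 0.20 and 0.40 under these settings, so that in the last 2 it had moved up as well.

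Of the control probes, the 5 for 5S ribosomal RNA differed between the arrays by -0.33 to 0.25, with a median of -0.21. A further 19 probes, which the array's annotation calls spike calibration controls, differed by -1.64 to 0.39, with a median of -0.14. Among them the 11 whose names start with Ctr differed by -0.92 to 0.39 (median -0.08) and the other 8 by -1.64 to -0.09 (median -0.40). The lowest value was that of a dim control, a3-PUC2MM-20B, at 174 in skin and 106 in oral mucosa (SD of its difference 0.66, 16 spots). Whether equal amounts of spike were added to both arrays is not given in the sources used here. The differences of miR-690 and miR-2137 lay outside the range of the 5S probes. They lay within that of the spike controls only through a3-PUC2MM-20B, as the next lowest spike control, Ctr10-3P, was at -0.92 (SD 0.12). With the median of the 5S probes subtracted, a setting added after the data had been seen, they were -0.94 and -1.05, so that miR-690 no longer passed the rule. With the median of the 11 Ctr spikes subtracted they were -1.07 and -1.17, and with that of all 19 spikes they were -1.01 and -1.12, both settings added likewise.

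**Figure D3:**
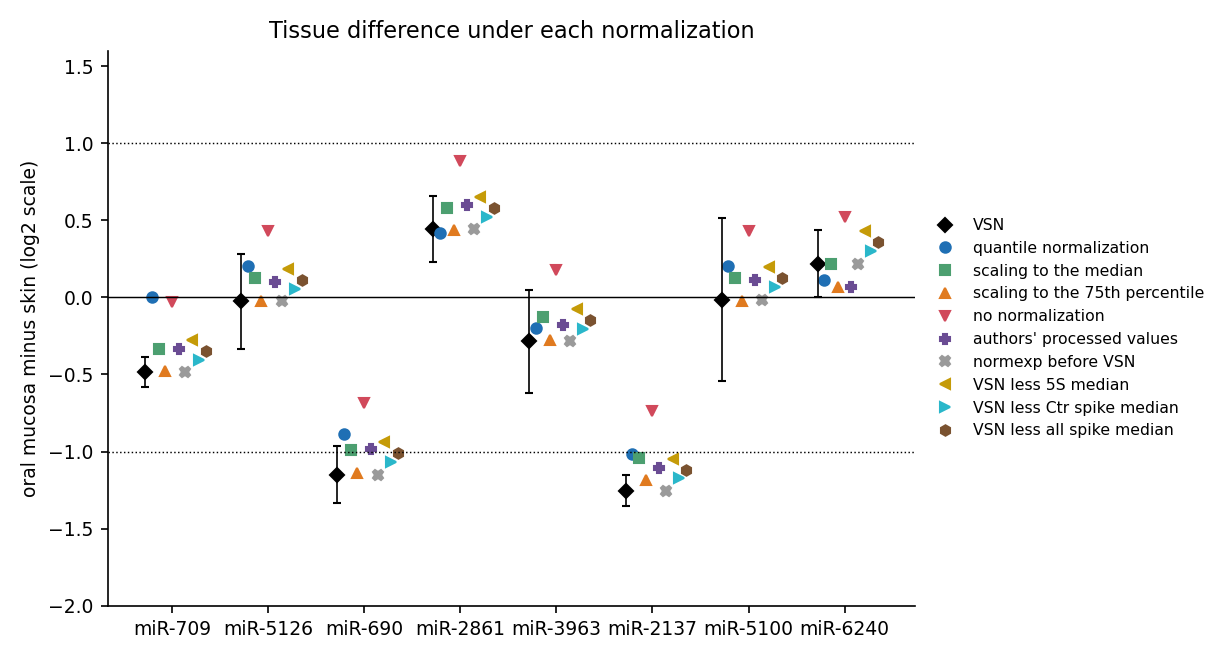
Oral mucosa minus skin (log2 scale) for each of the 8 questioned microRNAs with VSN (black, ± SD from repeat spots) and under the other normalizations and control-based scalings, with 0 as a solid line and the size rule as dotted lines. The values of miR-690 and miR-2137 stay below 0 under every setting drawn, and those of miR-5126 and miR-5100 lie on both sides of it.

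Entries with registration numbers close to those of the members were examined as a further comparison, since entries submitted together get numbers in a run. Of 88 such probes 31 were detected on at least 1 array (35.2%), against 29.7% of all probes. The 3 brightest were miR-6239, at 4411 in skin and 9325 in oral mucosa, miR-5099, at 4609 and 5501, and miR-3960, at 4533 and 5466. Their differences were 0.63 (SD 0.53), -0.20 (SD 0.30) and -0.19 (SD 0.15). Of the 31 detected, 9 differed by 2-fold or more, 7 of them toward skin and 2 toward oral mucosa. Their share, 29.0%, was near the 28.5% of all detected probes. Of the 31, 29 were detected in skin, 23 in oral mucosa and 21 on both, so more probes entered through skin alone. The 7 include miR-3970, miR-5104 and miR-696, detected in skin only, so the split toward skin depends in part on the detection filter. Among those detected on both arrays the differences toward skin were largest for miR-5112 at -2.17 (SD 0.55), miR-705 at -1.54 (SD 0.12) and miR-5107-5p at -1.19 (SD 0.14). Toward oral mucosa they were largest for miR-700-5p at 2.13 (SD 0.41), miR-691 at 1.25 (SD 0.47) and miR-5121 at 0.80 (SD 0.27). The median difference of the 31 was -0.56, and that of the members was -0.16. These medians are not like for like, as all members were detected on both arrays and the 31 include probes detected in skin only.

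Base composition set several members apart from the established list. The share of G and C in the mature sequence was 100% for miR-5126, which has no A or U and was the only probe of the array at that value. It was 94.7% for miR-2861, 85.7% for miR-2137, 69.2% for miR-6240, 68.4% for miR-709 and 61.9% for miR-5100. It was 47.4% for miR-3963 and 45.5% for miR-690, below the median of 52.2% over all probes and close to the median of 44.5% in the established list. The highest value in the established list was 63.6%, so that 5 of the 8 members lay above every established microRNA. G alone made up 77.3% of miR-5126, 68.4% of miR-2861, 57.9% of miR-709 and 52.4% of miR-2137.

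**Figure D4:**
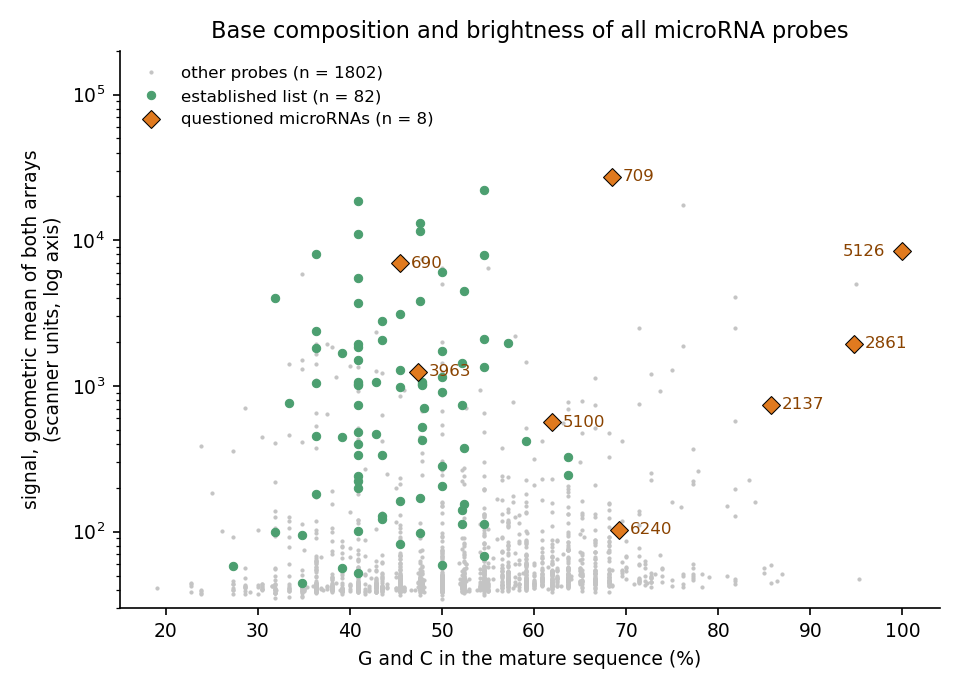
Share of G and C in the mature sequence (horizontal) and geometric mean of the signals on both arrays (scanner units, log axis) for all 1892 microRNA probes. MiR-5126, miR-2861 and miR-2137 are among the 12 probes at 85% or more, of which 4 read over 1000 on an array, and miR-690 and miR-3963 lie among the established microRNAs.

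Probes rich in G and C were not all bright on these arrays. Of the 12 probes at 85% or more, 3 of them members, 5 were detected on both arrays and 6 on neither. The other bright ones were miR-3960 and miR-6538, the latter at 1442 in skin and 2094 in oral mucosa, whereas miR-8109, at 95.2% G and C, read 44.6 and 50.7. By steps of composition, 27.6% of the probes under 40% were detected on at least 1 array, as were 27.5% from 40% to 50%, 29.1% from 50% to 60%, 31.7% from 60% to 70% and 42.9% of the 98 probes at 70% or more. By the same steps, 6.21%, 7.51%, 3.03%, 0.79% and 13.3% of the probes read over 1000 on at least 1 array. The last of these steps holds 3 members. Across all 1892 probes, Spearman's rho between the share of G and C and the signal was 0.21 in skin and 0.28 in oral mucosa. Across the 562 detected probes it was -0.17 and -0.12. These describe probes that share an array and its background, and are not independent replicates.

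Several members held words that recur in the genome near gene starts. Each mature sequence was cut into overlapping words of 12 bases, and the 32851 RefSeq promoter windows of the GRCm38.p6 build (250 bases before to 50 after a start) were searched for them on both strands. At least 1 word of miR-5126 occurred in 639 windows, or 1.95%, the most of all 1892 probes. The number was 178 for miR-2861, 169 for miR-709, 111 for miR-690 and 109 for miR-2137, which placed each of these above 97% of all probes. It was 18 for miR-5100, equal to the median of all probes, and 10 for miR-3963 and 7 for miR-6240. Over the 82 established microRNAs the median was 8.5 windows and the most was 45, for miR-214-3p. The 5 members with many windows thus each exceeded every established microRNA in this count. Except for miR-690, they also held more G and C (68.4% to 100%) than any established microRNA (at most 63.6%). No probes of like composition were set beside them, and the part of composition in the count was not tested.

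The word found most often is printed for the 4 members with the most windows, as it shows which letters recur, with its count of windows after a comma.
miR-5126: GGGCGGGGCCGG, 259 windows (0.788%)
miR-2861: GGCGGCGGGCGG, 114 windows (0.347%)
miR-690: GGCTCACAACCA, 100 windows (0.304%)
miR-709: AGGCAGAGGCAG, 70 windows (0.213%)
In miR-690 this word spans bases 9 to 20 and accounts for 100 of its 111 windows. Most of the recurrence thus came from 1 stretch of a sequence with 45.5% G and C. The word of miR-709 spans bases 3 to 14. The whole sequence of miR-709, miR-690 and miR-2861 was found in 1 window each, and that of the other 5 in 0 windows, which says only that these letters are not in those windows.

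A run of 10 bases or more was shared with another microRNA probe only by miR-709, with miR-6923-5p and miR-7082-5p (10 bases each). The first of these was detected on neither array. The second had a signal of 4594 in skin against 1357 in oral mucosa, and its tissue difference of -2.25 (SD 0.25) was larger in size than that of miR-709, -0.49 (SD 0.10).

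Precursors of established microRNAs fold into a stem from which the mature arm is cut, and the hairpins of RefSeq were therefore folded in silico with RNAfold. The mature arm of the members had 68.2% to 81.0% of its bases paired (median 73.7%, 7 members), against a median of 86.4% for the 83 precursor arms of established microRNAs and 81.0% for all 1553 arms folded. The 83 arms cover 70 of the 82 established names, as some names had more than 1 precursor and others had none folded. The member not folded was miR-709, which had no RefSeq entry. The folding energy per base of hairpin ran from -0.63 kcal/mol for miR-5126 to -0.21 for miR-6240, where a lower value is a more stable fold. Among the established it ran from -0.61 to -0.30. Thus miR-6240 and miR-690 (-0.27) were predicted less stable per base than every established precursor folded and miR-5126 more stable. The annotated hairpins of miR-6240 and miR-690 were 117 and 109 bases long, against an established median of 85. That of miR-5126 held 83.1% G and C. The part of hairpin length and composition in these energies was not tested. The precursor of miR-690 was the only one of the 7 with more than 1 terminal loop (3 loops), as were 3 of the 83 established arms (3.61%). Values for miR-2861 (-0.56), miR-5100 (-0.39), miR-2137 (-0.37) and miR-3963 (-0.32) lay within the established range.

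The hairpins of the least stable pair are printed with the mature arm in capitals, beside that of let-7g, an established precursor.
Mir690, chr16:28599935-28600043 (minus strand): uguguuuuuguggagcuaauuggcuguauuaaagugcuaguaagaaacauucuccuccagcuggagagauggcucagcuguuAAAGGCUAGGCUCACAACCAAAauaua
Mir6240, chr5:114851948-114852064 (plus strand): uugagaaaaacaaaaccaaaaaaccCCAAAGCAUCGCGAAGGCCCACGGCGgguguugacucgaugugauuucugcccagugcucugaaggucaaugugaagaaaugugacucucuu
Mirlet7g, chr9:106178840-106178927 (plus strand): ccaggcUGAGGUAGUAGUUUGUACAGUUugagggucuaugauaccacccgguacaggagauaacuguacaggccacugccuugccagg
The mature arm of Mir690 lies close to the 3' end of its hairpin, and that of Mirlet7g close to the 5' end. The fold energy and the brightness did not run in the same order, as the least stable precursors held both the dimmest member, miR-6240, and one of the 3 brightest, miR-690.

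**Figure D5:**
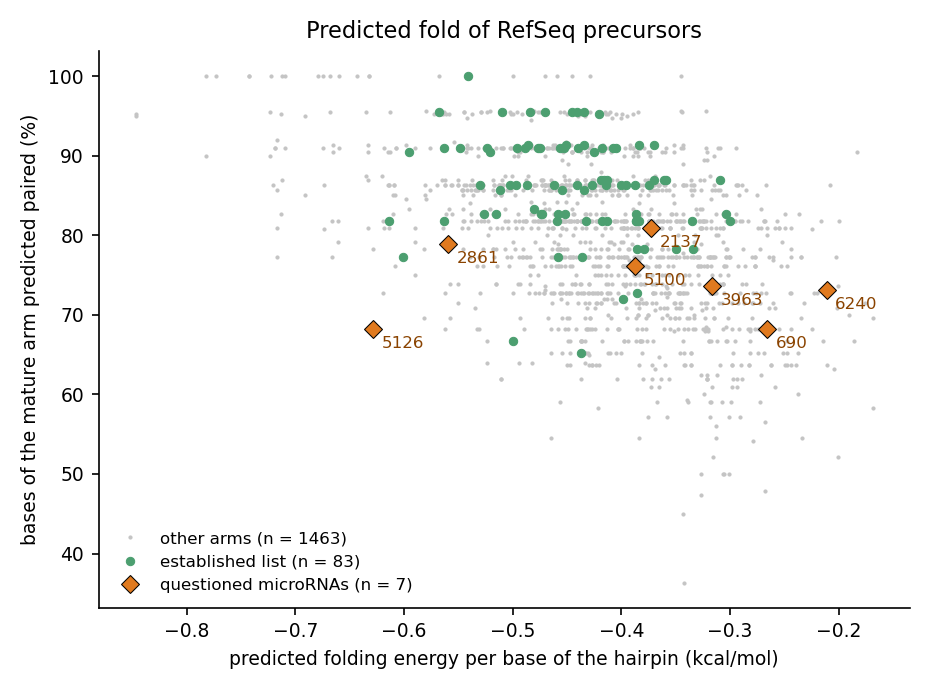
Predicted folding energy per base of the RefSeq hairpin (horizontal, kcal/mol) and share of the mature arm's bases predicted paired (vertical) for all 1553 arms with a probe on the array. The 7 questioned microRNAs (diamonds) lie between 68.2% and 81.0% paired, below the established median of 86.4%, and miR-6240 and miR-690 lie to the right of every established precursor drawn.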

How the data were processed

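The groups follow the sample labels. Per array, the authors deposited the Cy5 intensity of 3968 spots (median brightness, not background-corrected or normalized) and 1 processed intensity per probe, by a method not given in the sources used here. The members and the gene lists were chosen with earlier results of these data known. The 184 control spots served only for the detection limit, the 5S and spike values and, with all other spots, the fit of the normexp background. Repeat spots were averaged, and VSN was fitted on all 1892 probes by trimmed maximum likelihood, which gave an oral mucosa scale 1.37 times that of skin. The code was tested on simulated data. For a probe detected on a single array, the lowest detected value stood in for the undetected one unless its own value was higher. The SD of a difference covers repeat spots within arrays only, and precision is limited by the number of arrays.

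Named by rule were all members, the 3 brightest established microRNAs, the established one nearest to each member, let-7a-5p, miR-21a-5p, miR-203-3p and miR-205-5p, and for registration neighbours the 3 brightest and the 3 differing most toward either tissue among those detected on both arrays. Other probes were named after their values were seen. Of 84 established names 82 had a probe. Of all probes 1598 had a RefSeq mature entry by name, 1587 with the same sequence. Alternatives were other normalizations, the processed values as log2(value + 50), normexp with an offset of 50, single repeat spots, edge columns left out, and other detection limits, filters and thresholds. Versions were numpy 2.4.6, scipy 1.17.1, pandas 2.3.3, matplotlib 3.10.9 and RNAfold 2.7.2, run in Python 3.11.15.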

Additional observations from a re-analysis of the deposited data

How the results depend on the processing

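No paired analysis was possible because there is a single array per tissue. Detection of all 8 members on both arrays held under every detection limit and spot choice run, and the count of members higher in oral mucosa was 0 under every setting run. The count higher in skin, 2 with VSN, was 1 under quantile normalization, 1 after the medians were scaled to be equal, 1 in the authors' processed values and 1 after subtraction of the 5S median, a setting chosen after seeing the data; each time miR-2137 was left. It was 0 with no normalization and 0 at the 4-fold threshold, and 2 under the other settings run. The median difference of the members, -0.16, was 0.30 with no normalization, where the median over all detected probes was 0.40. It also turned above 0 with quantile normalization (0.06) and after subtraction of the 5S median (0.05, with 0.20 over all detected probes). The members' median ran from -0.22 to 0.00 under the other settings run. With the exception of no normalization, these shifts were smaller than the median SD of the members' differences, 0.22. That SD covers repeat spots within arrays and does not measure a change of array scaling, so it gives no scale for these shifts. The cause of the shifts and of the changed counts was not tested, except that a higher threshold leaves fewer calls by construction. For single members 0 called values changed sign. The signal over background limits miR-6240 most. The planned count of exact matches in the genome was not run.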
